A study of Mus musculus with 2 samples.

Results

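The S100 family was followed through the cells of mouse back skin by the unique molecular identifier (UMI) counts of 9 genes, S100a4, S100a6, S100a8, S100a9, S100a10, S100a11, S100a13, S100a14 and S100a16. The members were taken by gene symbol from the 31053 genes of the count matrices, and all 9 had at least 1 UMI in each library. Single-cell RNA-seq (10x Genomics, 3′ counting) covered 2 mice at postnatal day 53, a control and a mouse with inducible miR-205, with 1 library each. Both were labelled C57BL/6, carried a Krt14-H2b-GFP allele and were littermates matched by sex per the study's methods. The inducible mouse carried a pTRE2-miR-205 transgene, made in FVB founders, together with the Krt14-rtTA driver, which directs the transgene to keratin 14-expressing epithelium. The chow held doxycycline from postnatal day 49 on, that is for 4 days. The protocol text gives doxycycline to both mice, whereas the sample characteristics describe the control as untreated.

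S100 proteins are small EF-hand proteins that change shape on binding calcium and then dock onto partner proteins, mostly as dimers. Many partners are annexins, membrane-binding proteins that are themselves regulated by calcium. S100A10 is the exception that holds its active shape without calcium and pairs with annexin A2. S100A8 and S100A9 together form calprotectin, known from neutrophils and from activated or wounded keratinocytes. Most family genes lie in the epidermal differentiation complex beside the genes of the cornified envelope, and filaggrin and its relatives carry an S100 domain fused to a long repeat protein.

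All 9 members lie on chromosome 3 (GRCm38.p6, RefSeq). A stretch of 181 kb holds S100a13, S100a14, S100a16, S100a4, S100a6, S100a8 and S100a9 in that order, and S100a11 and S100a10 lie 2.82 Mb further on within 44 kb. S100a4 (chromosome 3, 90603770 to 90606045) and S100a6 (90612894 to 90614414) are separated by 6.85 kb, with S100a5 between them. The regions around the start sites of these neighbours are shown because both genes were abundant in bulge cells and differed there in direction between the libraries. They are the plus strand of GRCm38.p6 from RefSeq, 250 bases before to 50 bases after the start, with matches to the searched motifs in capitals, and cover chr3:90603520-90603819 for S100a4 and chr3:90612644-90612943 for S100a6.
S100a4: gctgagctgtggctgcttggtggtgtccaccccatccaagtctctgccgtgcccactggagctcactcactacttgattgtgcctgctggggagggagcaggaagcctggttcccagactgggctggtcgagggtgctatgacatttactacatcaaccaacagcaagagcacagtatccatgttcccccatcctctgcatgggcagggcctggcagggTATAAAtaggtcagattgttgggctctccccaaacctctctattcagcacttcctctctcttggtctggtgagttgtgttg
S100a6: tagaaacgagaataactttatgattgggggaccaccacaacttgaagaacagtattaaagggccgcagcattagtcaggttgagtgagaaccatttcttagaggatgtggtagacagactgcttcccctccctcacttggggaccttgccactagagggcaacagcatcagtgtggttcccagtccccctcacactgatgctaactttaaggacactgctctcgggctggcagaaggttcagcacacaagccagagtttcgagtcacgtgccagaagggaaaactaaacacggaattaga

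The motifs searched for were the TATA box (TATAAA), the AP-1 site (TGANTCA) and the GC box (GGGCGG), on both strands, and no matches overlapped. The S100a4 window held 1 match to TATAAA, starting 31 bases before the start site, and the S100a6 window held no match to any of them. TATAAA was found in 13.6% of all 32851 promoter windows of this length, TGANTCA in 7.8% and GGGCGG in 35.7%. The S100a11 window held 2 matches to TGANTCA and 3 to GGGCGG, and the S100a8 window 1 match to TATAAA, 30 bases before the start. The S100a9 window held 1 match to TATAAA, at the start site itself, and 1 to GGGCGG. For S100a16, 1 window held 1 match each to TGANTCA and GGGCGG and another held none, and the S100a13 window held none. Windows were matched for 7 of the 9 members, and those of S100a10 and S100a14 were not used here.

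The induced microRNA is shown with its seed, bases 2 to 8, in capitals (RefSeq, GRCm38.p6, chromosome 1, 193507503 to 193507524, minus strand).
mmu-miR-205-5p: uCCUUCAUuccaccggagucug
A seed match in a 3′ untranslated region (UTR) is the usual docking site of a microRNA. The 7 letters complementary to the seed, ATGAAGG, were in none of the annotated 3′ UTRs of the 9 members, whose longest forms ran from 67 bases in S100a8 to 618 in S100a14 (a GENCODE annotation on NCBIM37). Of 19915 genes with an annotated 3′ UTR, 11.3% held the match, and 2.4% of the 7909 genes with UTRs no longer than that of S100a14 held it. The transcript that hosts the miR-205 gene, 4631405K08Rik, stood at 103 CPM in control and 106 CPM in induced cells, where CPM (counts per 1000000) is the UMIs of a gene scaled to the UMI total of the population. Counts of this host transcript do not measure the mature microRNA and so do not check the induction. In cluster 2, described below, it stood at 182 CPM (168 to 197) in control and 111 CPM (99.7 to 124) in induced cells, and in cluster 8 it had 0 and 28 UMIs.

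Barcodes numbered 4545 in control and 4264 in induced skin, with 55465594 and 49733560 UMIs. After the study's cell filter 3936 and 3628 cells were left, with medians of 12198.5 and 11752.5 UMIs, and 11 barcodes occurred in both libraries. Clustering without S100 and related genes gave 25 clusters, of which 23 had at least 20 cells in each library. Clusters were named "-like" only where marker genes allowed it. The interfollicular epidermis (IFE) is the skin between follicles, and the bulge houses the hair follicle stem cells (HF-SCs). All 8 bulge markers were raised in cluster 2 and in cluster 19, 4 of 5 inner bulge markers in cluster 3, 6 of 8 basal IFE markers in cluster 0, 6 of 9 suprabasal markers in cluster 9, 6 of 7 upper follicle markers in cluster 5 and 7 of 9 dermal papilla markers in cluster 8. Cluster 6 raised 7 of 9 suprabasal and 6 of 7 upper follicle markers and stayed unnamed. Cluster 3 also raised 7 of 8 bulge markers and was named for the 2 inner bulge markers among its 10 leading genes, Krt75 and Fgf18, of which Fgf18 stands on the bulge list too. Cluster 20, named macrophage-like with 6 of 6 markers raised, also raised 7 of 9 Langerhans markers. Cluster 7 raised 5 of 6 hair germ markers, but the smooth muscle gene Tagln was among its 10 leading genes, and it stayed unnamed as well. All 8 fibroblast markers were raised in cluster 16 and all 9 Langerhans and antigen-presenting markers in cluster 17. With 1 library per group no difference between the mice could be tested. Intervals below are exact at 95% and cover counting error only.

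S100a6, calcyclin, was high in the lower follicle and low in differentiated epidermis. In control skin it stood at 19543 CPM in inner bulge-like cells (interval 19300 to 19788), the highest of 23 populations. Cluster 11 (12046 CPM) and the smaller bulge HF-SC-like cluster 19 (11464 CPM) came next with overlapping intervals, followed by the main bulge HF-SC-like cluster 2 with 8721 CPM. Basal IFE-like cells held 1987 CPM and upper follicle-like cells 1349 CPM. Suprabasal IFE-like cells held 402 CPM, cluster 6 held 181 CPM and sebaceous gland-like cells held 81.7 CPM, the lowest. The highest level was 239 times the lowest in control and 359 times in induced cells.

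**Figure D1:**
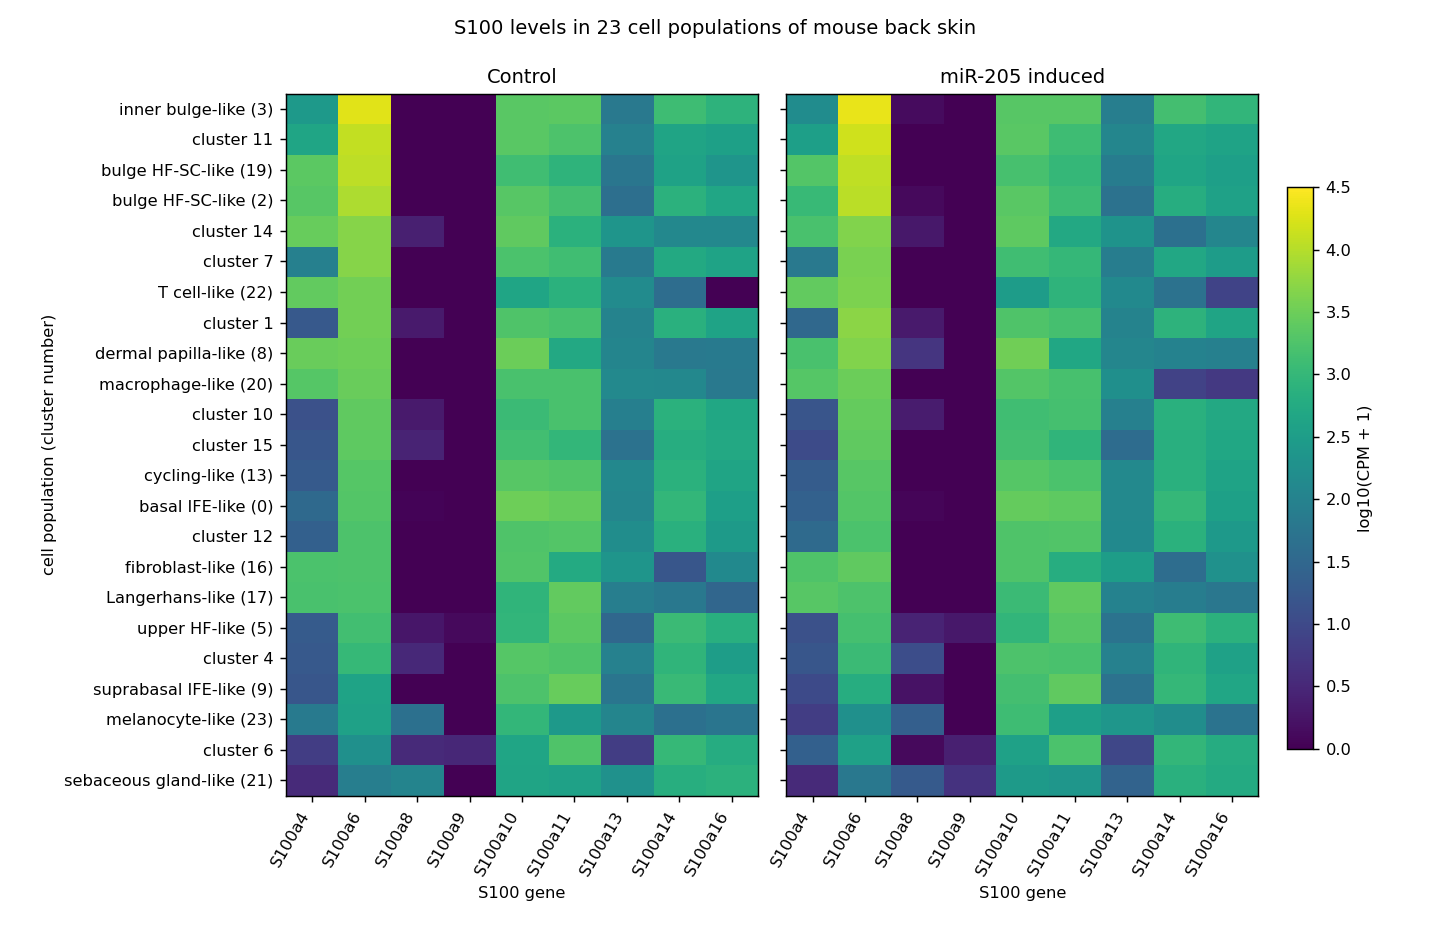
Levels of the 9 S100 genes in 23 cell populations, control at the left and miR-205 induced at the right, with colour giving log10(CPM + 1) and rows in the order of S100a6 in control. S100a6 runs from 19543 CPM in inner bulge-like cells to 81.7 CPM in sebaceous gland-like cells. S100a8 and S100a9 are near 0 almost everywhere, and S100a14 is low in dermal and immune rows.

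S100a4, also called metastasin or fibroblast-specific protein, binds non-muscle myosin. In control skin dermal papilla-like cells held 3007 CPM, cluster 14 held 2814 CPM and T cell-like cells 2629 CPM, and the intervals of these neighbours overlapped. Cluster 14 raised all 8 fibroblast and all 5 Schwann cell markers. The bulge HF-SC-like clusters 19 and 2 held 2303 and 2112 CPM, macrophage-like cells 2037 CPM, fibroblast-like cells 1705 CPM and Langerhans-like cells 1591 CPM. Fibroblast-like and Langerhans-like levels had overlapping intervals. In the inner bulge-like cluster S100a4 was at 258 CPM. Basal IFE-like cells held 33.6 CPM of S100a4, suprabasal IFE-like cells 15.3 CPM, upper follicle-like cells 18.7 CPM and cluster 6 5.62 CPM. Among the epithelial populations the 2 bulge HF-SC-like clusters were the highest for S100a4.

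The share of cells with an S100a4 UMI was read in populations at high and at low levels. Cells were thinned to 5000 UMIs each, and the 18 control and 10 induced bulge HF-SC-like cells below that depth were dropped. S100a4 was detected in 87.1% of 317 control cells of cluster 2 (82.9 to 90.6%) and in 74.3% of 288 induced cells (68.9 to 79.3%). Without thinning the shares were 91.0% and 81.2%. In basal IFE-like cells, a type at a low level, the thinned shares were 8.08% and 8.31%, with median depths of 16492 and 17409 UMIs against 9900 and 10289 UMIs in cluster 2. The bulge shares stood far above that level in both libraries. In 3 other populations with much S100a4 the thinned control shares had overlapping intervals, so they gave no order. They were 92.0% of 50 dermal papilla-like, 96.6% of 58 fibroblast-like and 100% of 49 Langerhans-like cells. Of the 141 control dermal papilla-like cells, 91 fell below the thinning depth and were dropped.

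**Figure D2:**
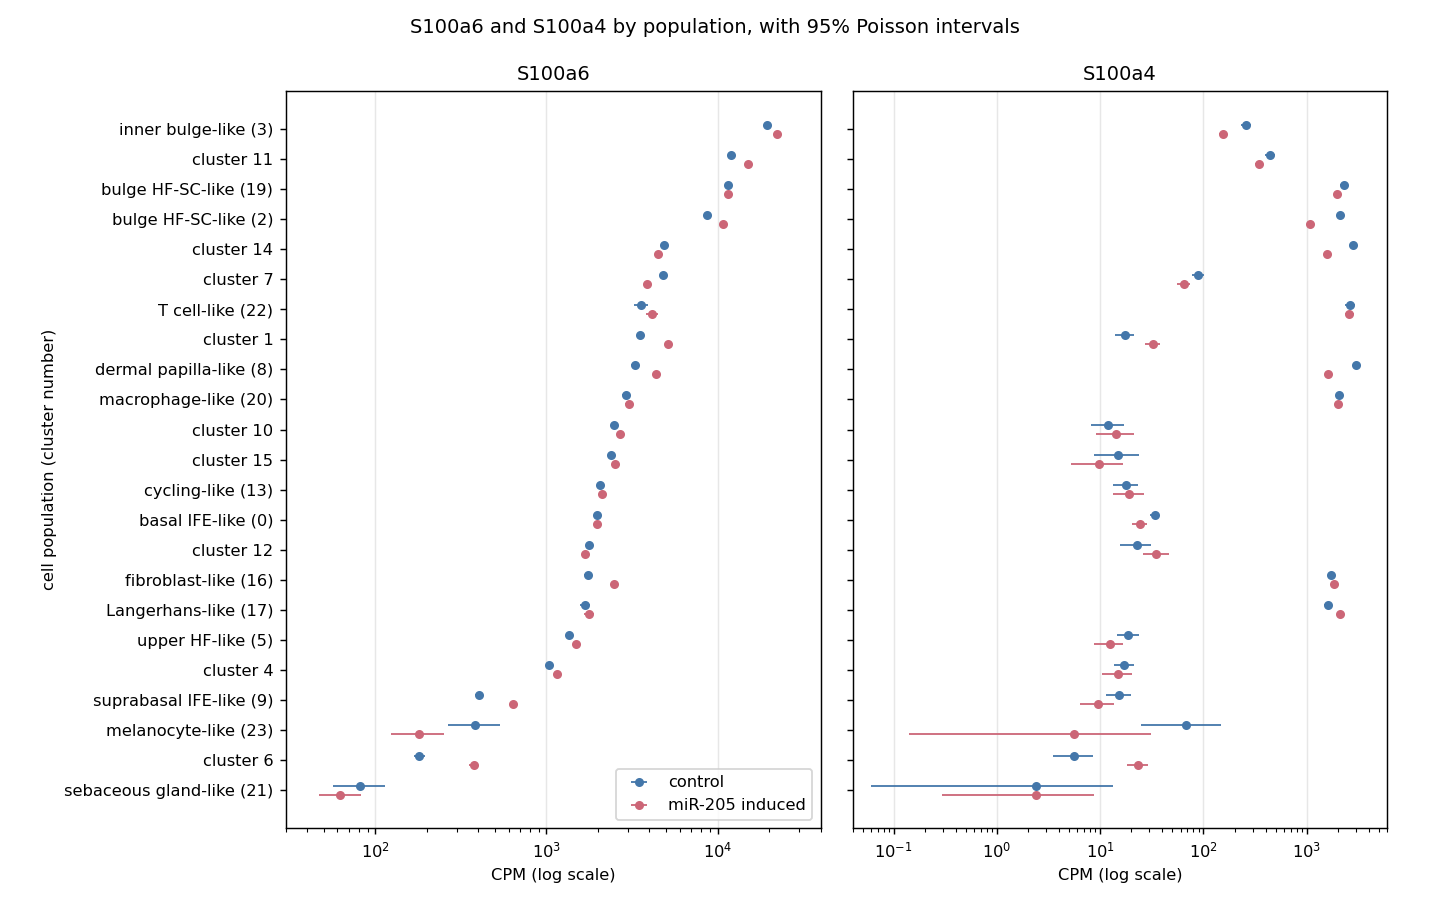
CPM of S100a6 (left) and S100a4 (right) on log axes in each of 23 populations, with blue points for control, red points for miR-205 induced and bars for 95% Poisson intervals. In the bulge HF-SC-like cluster 2, S100a6 lies to the right in induced cells (8721 and 10729 CPM) and S100a4 to the left (2112 and 1076 CPM).

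Between the libraries S100a4 was lower in induced bulge HF-SC-like cells of cluster 2, at 1076 CPM (1040 to 1114) against 2112 CPM (2063 to 2162) in control, a log2 ratio of −0.97 (−1.03 to −0.91). The difference was seen at each quantile of the cells. The median cell held 1583 CPM in control and 596 CPM in induced skin, the lower quartile 569 and 97.5 CPM, and the 90th percentile 4706 and 2867 CPM. S100a4 was the single member of 7 tested past 1.5-fold in this cluster, where 18.3% of 9243 genes passed 1.5-fold in either direction. The median log2 ratio was −0.23 over the members and 0.05 over all genes tested. Across the 10 alternative ways of processing run on this value it stayed between −1.22 and −0.73.

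Markers of other populations were read in the same cells. Of the T cell markers, Cd3e, Cd3g, Cd3d, Trdc and Trac were at 0 in both libraries, and all 9 summed to 28.8 CPM in control and 15.5 CPM in induced cells. Macrophage markers summed to 0.59 and 0.65 CPM with 1 of 6 detected, and fibroblast markers to 38.6 and 26.5 CPM. The 5 inner bulge markers summed to 3705 CPM in control and 3847 CPM in induced cells of cluster 2, most of it Krt6a, which is also an activation keratin, and the 4 without Krt6a to 212 and 427 CPM, and the 8 bulge markers to 12284 and 15268 CPM. In the inner bulge-like cluster 3 the same sums were 2162 and 2230 CPM, 382 and 637 CPM, and 15833 and 17906 CPM. Cluster 3 thus had the lower sum of the 5 inner bulge markers and the higher sum of the bulge markers. Inner bulge-like cells were low for S100a4 and high for S100a6, and the part of these markers in the S100a4 and S100a6 differences was not tested.

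S100a4 was also lower in dermal papilla-like, inner bulge-like and cluster 14 cells of induced skin. Dermal papilla-like cells went from 3007 CPM in control to 1617 CPM in induced skin (log2 −0.89, −0.98 to −0.80), with 1 of 7 members and 23.8% of all genes past 1.5-fold. Inner bulge-like cells stood at 258 and 154 CPM (log2 −0.75, −0.96 to −0.54), again with S100a4 as the single member past 1.5-fold against 16.8% of all genes. The 5 richest cells carried 34.5% and 30.5% of the inner bulge UMIs. Cluster 14 stood at 2814 and 1581 CPM (log2 −0.83, −0.93 to −0.74). There 2 of 7 members were lower past 1.5-fold, S100a4 and S100a14, against 9.95% of all genes lower. Alternative processing was not run on cluster 14. The dermal papilla is mesenchymal, outside the epithelium that the driver marks, and all 8 basal IFE markers were nevertheless detected in these cells, summing to 6051 and 6747 CPM. The 9 dermal papilla markers themselves summed to 4867 CPM in control and 2732 CPM in induced cells. The part of either list in the result was not tested.

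In the other S100a4-holding populations the pooled levels of the libraries were closer. The second bulge HF-SC-like cluster 19, with 31 and 59 cells, held 2303 and 1946 CPM (log2 −0.24, −0.40 to −0.08). Its median cell was lower in induced skin, at 2044 and 1259 CPM, as was the lower quartile, at 1462 and 175 CPM. The 90th percentile was not, at 4126 and 4385 CPM. Thinned shares were 96.0% of 25 control and 80.0% of 55 induced cells, with overlapping intervals. Macrophage-like cells held 2037 and 2018 CPM, and T cell-like cells 2629 and 2580 CPM, both with overlapping intervals. Fibroblast-like cells held 1705 and 1839 CPM (log2 0.11, 0.01 to 0.21). Langerhans-like cells held more in induced skin, 1591 against 2120 CPM (log2 0.41, 0.28 to 0.55). Over the alternatives the fibroblast-like value ran from −0.35 to 0.18 and the Langerhans-like value from −0.09 to 0.55, so neither direction held throughout. Over the 21 populations where S100a4 was tested it was lower in 14 and higher in 7.

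**Figure D3:**
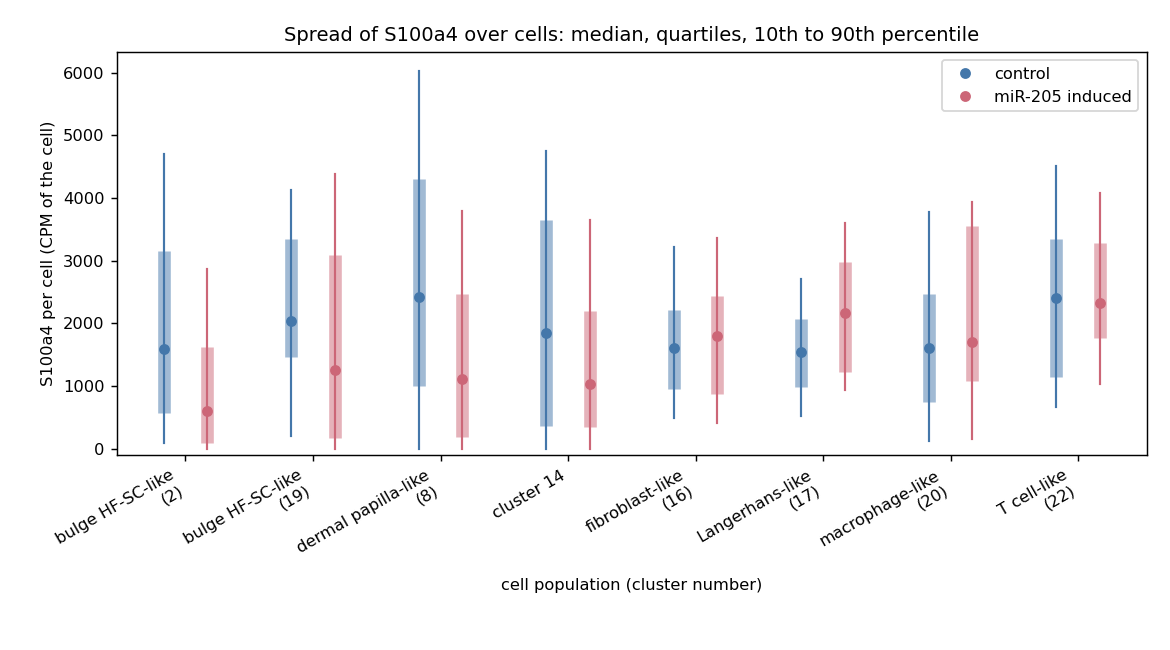
S100a4 per cell, as CPM of each cell, in 8 populations, with points for medians, thick bars for quartiles and thin lines from the 10th to the 90th percentile, blue for control and red for miR-205 induced. The median is lower in induced cells of the bulge HF-SC-like cluster 2 (1583 and 596 CPM) and the dermal papilla-like cluster (2425 and 1118 CPM), and higher in Langerhans-like cells (1548 and 2161 CPM). It is also lower in the bulge HF-SC-like cluster 19 (2044 and 1259 CPM).

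S100a6 went the other way in the same bulge cells. It stood at 8721 CPM in control and 10729 CPM in induced cells of cluster 2 (log2 0.30, 0.28 to 0.32), and at 19543 and 22398 CPM in inner bulge-like cells (log2 0.20, 0.18 to 0.22). Cluster 11 held 12046 and 15069 CPM (log2 0.32). Cluster 1, an unnamed population led by Sval2 and Saa1, held 3521 and 5151 CPM (log2 0.55). Dermal papilla-like cells held 3274 and 4368 CPM (log2 0.42) and fibroblast-like cells 1755 and 2487 CPM (log2 0.50). None of these differences passed 1.5-fold.

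In basal IFE-like cells S100a6 did not separate the libraries, with 1987 and 1966 CPM (log2 −0.02, −0.05 to 0.02), and the smaller bulge cluster 19 held 11464 and 11571 CPM (log2 0.01, −0.05 to 0.08). Cluster 7 was lower in induced skin, at 4783 and 3895 CPM (log2 −0.30). S100a6 was higher in 17 of the 23 populations. Of the 1128 genes tested in every population, 14.1% were higher in at least 17. These populations share their 2 libraries, so they are not replicates.

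The largest positive S100a6 ratios lay where the gene was scarce. Cluster 6 held 181 CPM in control and 375 CPM in induced cells (log2 1.05, 0.91 to 1.19), and suprabasal IFE-like cells 402 and 639 CPM (log2 0.67, 0.57 to 0.77). Few cells carried these counts. In cluster 6 the 5 richest cells held 54.0% of the control and 63.3% of the induced UMIs, and the median cells were close, at 49.1 and 53.7 CPM. Without the highest-scoring doublets the ratio in cluster 6 was 0.60, and in cells with under 5% mitochondrial UMIs it was 0.30. In suprabasal IFE-like cells the median cell was lower in induced skin, 85.6 against 123 CPM, and the ratio turned to −0.77 when cells were gated on Krt1 and Krt10 UMIs in place of clusters. A second set of gates gave 0.58.

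The calprotectin pair was close to absent. Over all kept cells S100a8 had 85 UMIs in control and 73 in induced skin, or 1.68 and 1.61 CPM, and S100a9 had 9 and 13 UMIs. S100a9 was at 0 UMIs in both libraries in the bulge HF-SC-like, basal IFE-like and suprabasal IFE-like clusters. In basal IFE-like cells 0 of 590 control and 0 of 354 induced cells had an S100a9 UMI, which allows shares of up to 0.508% and 0.847%. Of the neutrophil markers, Retnlg, Ly6g and Ngp were at 0 in both libraries, Csf3r had 19 and 7 UMIs and Camp 12 and 13. Ltf, a leading gene of the unnamed cluster 10, had 0 and 69 UMIs.

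The S100a8 that was found lay in few cells. Sebaceous gland-like cells had 45 UMIs in control (108 CPM) and 15 in induced skin (18.0 CPM), a log2 ratio of −2.56 (−3.54 to −1.72), over 21 and 39 cells. The 5 richest cells held 97.8% of the control UMIs. In these cells 4 of 7 members were past 1.5-fold, all lower, against 28.5% of all genes in either direction and 16.4% lower. Beside S100a8 they were S100a10 (177 and 234 UMIs, log2 −0.60), S100a11 (154 and 190 UMIs, log2 −0.70) and S100a13 (78 and 22 UMIs, log2 −2.80), and the 5 richest cells held 69.5%, 58.4% and 89.7% of their control UMIs. Cluster 4 had 11 and 28 UMIs (log2 2.14, 1.12 to 3.33), all in at most 5 cells of each library. Activation keratins gave no shared direction in bulge cells, where Krt6a, Krt16 and Krt17 had log2 ratios of −0.03, −0.33 and 0.24. Krt6a was higher in basal IFE-like cells, with 294 UMIs in control and 323 in induced skin (log2 0.81, 0.58 to 1.04), and in suprabasal IFE-like cells, with 114 and 196 UMIs (log2 0.92, 0.59 to 1.27). The other keratins did not share this direction. In basal IFE-like cells the more abundant Krt16 was lower, at 2018 and 1430 CPM (log2 −0.50), and Krt17 was at log2 −0.10. In suprabasal IFE-like cells the median log2 ratio of the 3 tested keratins was −0.21.

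S100a10 and S100a11, the annexin partners, were present in every population. S100a10 ran from 425 CPM in sebaceous gland-like to 3209 CPM in basal IFE-like control cells, and dermal papilla-like cells held 3084 CPM. S100a11, which pairs with annexin A1, ran from 258 CPM in melanocyte-like to 2851 CPM in suprabasal IFE-like control cells, and Langerhans-like cells held 2620 CPM. It was low in dermal papilla-like (521 CPM) and fibroblast-like cells (556 CPM), where S100a10 was abundant. Over the 23 control populations S100a11 and Anxa2 correlated with r = 0.85 on log2(CPM + 10), and r was 0.88 over the induced populations. For S100a10 and Anxa2 the values were 0.41 and 0.46. With Anxa1 they were 0.48 and 0.52 for S100a11 and 0.59 and 0.61 for S100a10. S100a14 and Anxa2 had 0.73 and 0.48. These points share library and depth, and each r is a description. A pseudogene copy of S100a11 is annotated, so its counts carry some uncertainty.

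S100a11 was lower in induced skin in 19 of 23 populations, and 9.57% of the 1128 genes tested in every population were lower in at least 19. The differences were small. In basal IFE-like cells it stood at 2726 and 2412 CPM (log2 −0.18, −0.21 to −0.15), in suprabasal IFE-like cells at 2851 and 2540 CPM (log2 −0.17, −0.21 to −0.12) and in bulge HF-SC-like cells of cluster 2 at 1414 and 1204 CPM (log2 −0.23, −0.29 to −0.17). Cluster 7 held 1310 and 997 CPM (log2 −0.39). Fibroblast-like cells were on the other side, at 556 and 626 CPM, with an interval that included 0 (log2 −0.01 to 0.35). S100a10 had no common direction, being lower in 13 and higher in 10 populations. It stood at 3209 and 2778 CPM in basal IFE-like cells (log2 −0.21, −0.24 to −0.18) and at 2119 and 2241 CPM in cluster 2 (log2 0.08, 0.03 to 0.13).

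Among the 12 annexins and other S100 partners, 2 were past 1.5-fold in cluster 2, against 18.3% of all genes, and both were lower. Anxa1 stood at 1217 CPM in control and 731 CPM in induced cells (log2 −0.74, −0.81 to −0.66), and Anxa3 had 26 and 1 UMIs. Anxa2 was at 2761 and 2186 CPM (log2 −0.34). The median log2 ratio of the 12 was −0.18, against 0.05 over all genes. In inner bulge-like cells none of 11 tested partners passed 1.5-fold, against 16.8% of all genes. Anxa2, the highest of them, stood at 3523 and 3096 CPM (log2 −0.19), and Anxa1 at 2560 and 1847 CPM (log2 −0.47). In basal IFE-like cells 1 of 12 passed, Anxa3, at 16.9 and 5.53 CPM, against 12.7% of all genes. 

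Elsewhere the partners past 1.5-fold were mostly scarce. Of 11 tested in dermal papilla-like cells 2 passed, against 23.8% of all genes, and 2 of 12 in fibroblast-like cells, against 22.1%. In Langerhans-like cells 2 of 11 were higher and 1 lower, against 29.6% of all genes in either direction. It was 1 of 12 in cluster 7, against 23.7%, and 1 of 11 in suprabasal IFE-like cells, against 16.5%. In dermal papilla-like cells Anxa8 had 33 and 100 UMIs (log2 0.67) and Anxa11 10 and 68 (log2 1.79), both higher. In fibroblast-like cells Anxa8 had 2 and 41 UMIs and Anxa3 13 and 28. In Langerhans-like cells Anxa7 and Anxa8 were higher (log2 0.77 and 0.75, the latter with an interval that included 0) and Anxa11 lower, with 130 and 84 UMIs (log2 −0.63). Anxa3 was lower in cluster 7 (44 and 33 UMIs) and in suprabasal IFE-like cells (24 and 11 UMIs), both with intervals that included 0. Among the receptors of secreted S100 proteins, Tlr4 was higher in fibroblast-like cells (6 and 26 UMIs) and Cd69, an early activation marker of lymphocytes, lower in Langerhans-like cells (47 and 22 UMIs). Each was 1 of 2 receptors tested in its population. Cacybp, the S100A6-binding protein, stood at 57.3 and 65.9 CPM in cluster 2 with an interval that included 0 (log2 −0.09 to 0.49). Bsg, a receptor for secreted S100A9, was at 243 and 240 CPM in cluster 2.

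S100a14 and S100a16 were abundant in epithelium, but S100a16 was not confined to it. S100a14 stood at 1265 CPM in inner bulge-like, 1176 CPM in upper follicle-like, 1114 CPM in suprabasal IFE-like and 967 CPM in basal IFE-like control cells. It was at 64.9 CPM in dermal papilla-like, 62.0 CPM in Langerhans-like and 15.3 CPM in fibroblast-like cells. S100a16 stood at 810 CPM in inner bulge-like, 686 CPM in upper follicle-like and 339 CPM in basal IFE-like cells, and had 0 UMIs in control T cell-like cells. Thinned S100a16 shares were 46.6% in control and 65.6% in induced fibroblast-like cells, against 75.3% and 75.6% in basal IFE-like cells. In dermal papilla-like cells they were 24.0% and 24.5%. The pair correlated with r = 0.86 over the control populations and 0.89 over the induced ones. The genes most like S100a14 over the 23 control populations were Perp (r = 0.98), a desmosomal membrane protein, Fxyd3 (0.95) and Trim29 (0.95), with r of 0.96, 0.93 and 0.90 over the induced populations. Dstn (0.89), Fdft1 (0.88) and Ppp1r14b (0.87) were most like S100a16.

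For S100a6 the most alike gene was Tns1, tensin 1 (r = 0.83 in control and 0.81 in induced), and for S100a4 they were St3gal4 (0.87 and 0.74) and Lgals1, galectin 1 (0.86 and 0.83). S100a11 was most like Lsr (0.86 and 0.77), and S100a10 most like Erf (0.83 and 0.63) with Itgb1, integrin β1, at 0.82 and 0.78. The genes picked for S100a8 and S100a9 had r above 0.84 in control and at most 0.52 in induced populations. Those for S100a13 went from between 0.71 and 0.77 to between 0.13 and 0.51. S100a4 ran against S100a14 over the populations, with r = −0.69 in control and −0.74 in induced skin.

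In cluster 2, S100a14 and S100a16 were slightly lower in induced cells. S100a14 stood at 790 and 637 CPM (log2 −0.31, −0.40 to −0.23) and S100a16 at 462 and 370 CPM (log2 −0.32, −0.43 to −0.21). Neither direction held under every alternative, with values up to 0.09 and 0.10. In the second bulge HF-SC-like cluster 19 S100a16 went the other way. It was the single member of 7 past 1.5-fold there and was higher in induced cells. Of all genes in that cluster 15.7% were higher and 10.2% lower past this fold. Thinned S100a16 shares were 72.0% of 25 control and 89.1% of 55 induced cells, with overlapping intervals. In inner bulge-like cells both were slightly higher, S100a14 at 1265 and 1416 CPM (log2 0.16) and S100a16 at 810 and 916 CPM (log2 0.18). In basal IFE-like cells the intervals of both ratios included 0, and no member passed 1.5-fold there, against 12.7% of all genes. Cluster 7 likewise had 0 of 7 members past 1.5-fold, against 23.7% of all genes.

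S100a13, which takes part in the release of FGF1, was found in every population. Its control levels ran from 5.62 CPM in cluster 6 to 221 CPM in cluster 14 and fibroblast-like cells, which could not be told apart by their intervals. Upper follicle-like cells held 30.4 CPM in control and 51.1 CPM in induced skin (log2 0.75, 0.39 to 1.11), but the ratio was −0.20 and −0.11 when the cells were gated on marker UMIs in 2 ways. Fibroblast-like cells held 221 and 322 CPM (log2 0.54, 0.28 to 0.82). Basal IFE-like cells held 115 and 128 CPM (log2 0.15, 0.02 to 0.28). S100a13 overlaps S100a1 head to head.

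**Figure D4:**
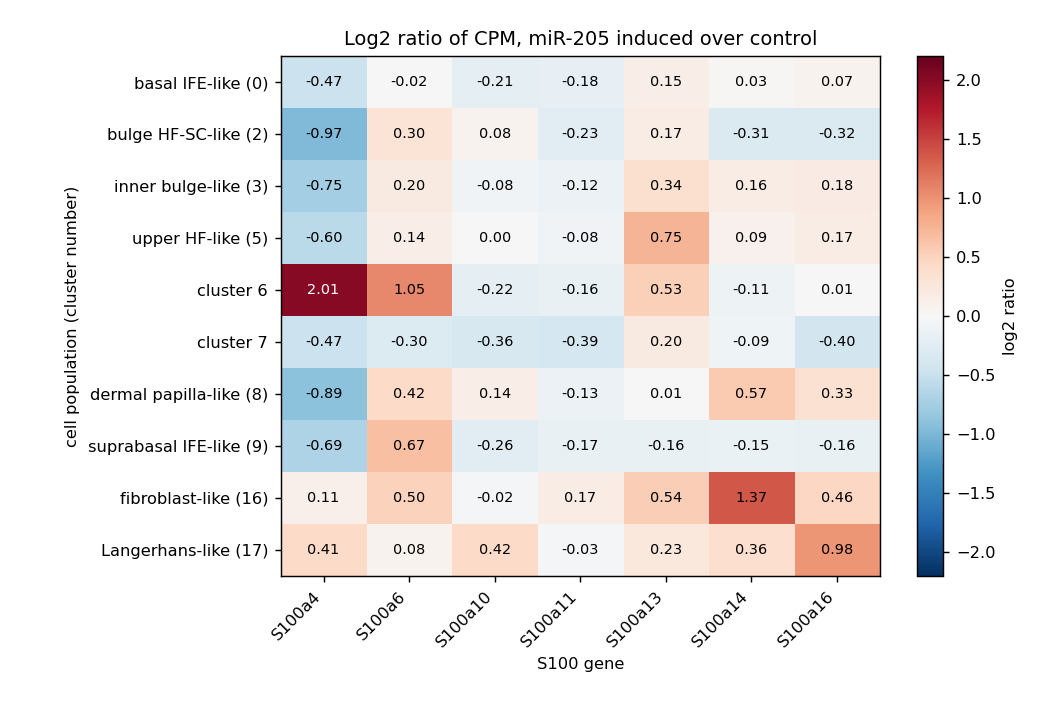
Log2 ratios of CPM, miR-205 induced over control, for 7 S100 genes (columns) in 10 populations (rows), printed in each cell and coloured red for higher and blue for lower in induced skin. S100a4 is lowest in the bulge HF-SC-like cluster 2 (−0.97) and the dermal papilla-like cluster (−0.89), and its 2.01 in cluster 6 rests on 21 and 76 UMIs.

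In upper follicle-like cells 2 of 7 members passed, against 13.0% of all genes, S100a13 and S100a4, the latter with 66 and 40 UMIs and a ratio of −0.60 that turned positive under 3 alternatives. In cluster 6 the 2 were S100a6 and S100a4, against 14.1% of all genes, and S100a4 had 21 and 76 UMIs (log2 2.01, 1.32 to 2.80), of which the 5 richest cells held 52.4% and 60.5%. A second set of marker gates gave −0.43 in place of 2.01. In suprabasal IFE-like cells S100a6 and S100a4 passed, against 16.5% of all genes, and S100a4 had 52 and 29 UMIs.

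In fibroblast-like cells 1 of 7 members passed, against 22.1% of all genes. It was S100a14, at 13 and 37 UMIs (log2 1.37, 0.46 to 2.44), with 70.3% of the induced UMIs in 5 cells. The ratio was 0.18 without the highest-scoring doublets and −0.32 under marker gates. Keratins were higher in these cells as well, with Krt17 at 43.4 and 273 CPM and Krt16 at 15.3 and 80.7 CPM, and all 8 basal IFE markers were detected in induced and 7 of 8 in control fibroblast-like cells, summing to 6473 and 4959 CPM. Their part in the result was not tested. In Langerhans-like cells S100a16 passed, with 15 and 30 UMIs that lay in at most 5 cells of each library, against 29.6% of all genes. In macrophage-like cells 2 of 7 members passed, S100a14 and S100a16, both lower. Of all genes there 19.6% were lower and 13.6% higher past this fold. S100a14 went from 54 to 3 UMIs, and S100a16 had a log2 ratio of −3.56. The basal IFE markers summed to 4912 CPM in control and 1043 CPM in induced macrophage-like cells. Their part was not tested either.

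Of the other S100 genes, few were abundant. S100a3, known from the hair cuticle, stood at 39.3 and 13.8 CPM in cluster 7 (log2 −1.50), and its UMIs numbered 195 and 133 in cluster 2 (log2 −0.43). In upper follicle-like cells it had 32 and 55 UMIs (log2 0.89), S100a1 had 81 and 118 (log2 0.66) and S100pbp 17 and 10 (log2 −0.62). S100pbp, which encodes a protein that binds S100P and is no S100 protein itself, had 7 and 18 UMIs in cluster 6. S100g, a calcium-binding protein of epithelia, had 40 and 231 UMIs in dermal papilla-like cells (log2 1.60, 1.13 to 2.14), and 8 and 30 in inner bulge-like cells. Krt16 was also higher in dermal papilla-like cells, with 22 and 203 UMIs (log2 2.26), and Camp lower with 12 and 8.

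Of the 7 fused-type relatives, 5 reached 20 UMIs in cluster 6 and at most 1 in each of the other populations described. All 5 were past 1.5-fold and lower in induced cells, with a median log2 ratio of −1.15 against 0.04 over all genes. Of all genes tested in cluster 6, 14.1% passed 1.5-fold in either direction and 5.25% were lower. The spread of these 5 genes over cells is not given here. Filaggrin (Flg) stood at 144 CPM in control and 5.44 CPM in induced cells (log2 −4.69, −5.49 to −4.05), and Flg2 at 440 and 65.3 CPM (log2 −2.75, −2.96 to −2.55). Hrnr stood at 77.9 and 35.1 CPM, Rptn at 46.0 and 21.5 CPM and Tchh, trichohyalin, at 26.2 and 17.2 CPM. These genes mark late differentiation, and they were withheld from the genes used for clustering. Tchh went the other way in cluster 7 (12 and 34 UMIs) and in suprabasal IFE-like cells (12 and 21 UMIs). S100a14 and S100a16 in the same cells were close between the libraries, at 1041 and 964 CPM and at 604 and 608 CPM.

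Over all kept cells S100a6 stood at 3062 CPM in control and 4649 CPM in induced skin (log2 0.60). With the induced level of each cluster weighted by the control share of UMIs the log2 ratio was 0.21, and with control levels weighted by induced shares it was 0.40. The inner bulge-like cluster, the richest in S100a6, made up 2.51% of control and 6.48% of induced UMIs. For S100a4 the whole-library ratio was −0.06, at 333 and 320 CPM, but it was −0.54 at control shares and 0.48 from shares alone. Dermal papilla-like cells, at the top for S100a4, made up 1.31% and 2.75% of the UMIs. The cells were sorted at 3:5:2 for epidermal, follicle and dermal cells, and shares in the libraries cannot be told apart from that sort. S100a11 was at −0.24 over all cells and at −0.15 at control shares, and S100a10, S100a13, S100a14 and S100a16 differed by at most 0.13 in either reckoning.

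**Figure D5:**
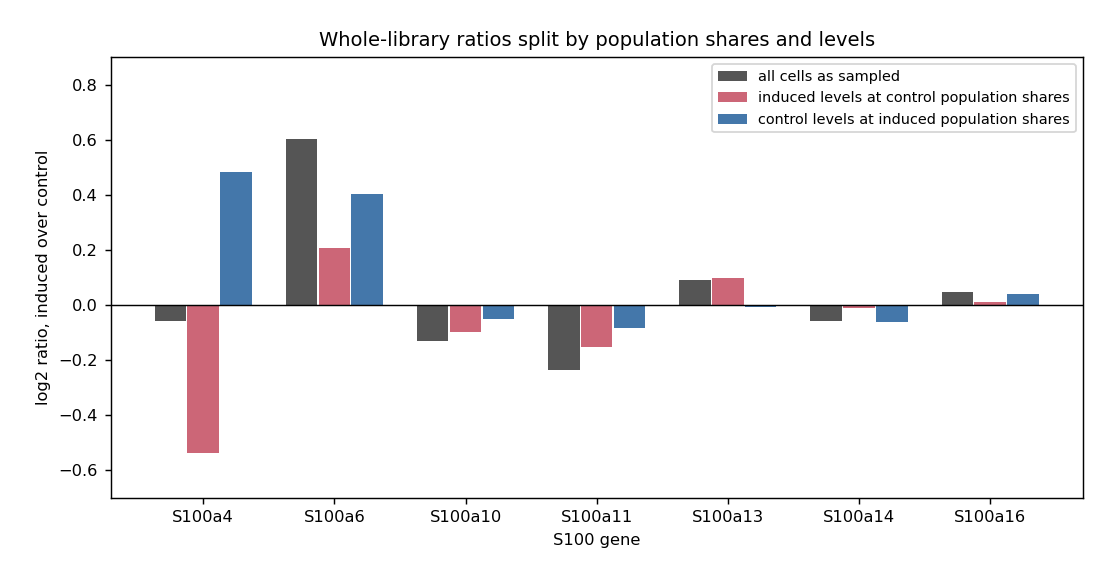
Log2 ratios, induced over control, of 7 S100 genes over whole libraries, with grey bars for all cells as sampled, red bars for induced levels at control population shares and blue bars for control levels at induced population shares. For S100a4 the red bar (−0.54) and the blue bar (0.48) point in opposite directions and the grey bar is near 0 (−0.06), and for S100a6 all of them are above 0.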

How the data were processed

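The authors counted 3′ reads per gene and barcode with Cell Ranger (version 3.0.1 per the file headers, build mm10 per the submitters' processing notes) and deposited raw UMI counts without normalization. Cells with more than 200 and fewer than 5000 genes and under 10% mitochondrial UMIs were kept, as in the study. Libraries were integrated in Seurat 5.3.0 (R 4.3.3) with 2000 variable genes, 30 dimensions and resolution 0.8, and 53 S100, related and listed genes were withheld from the variable genes. A cluster was named where at least 3 markers with at least 20 UMIs were raised at least 2-fold, with 1 among the top 10 genes or 75% of the list raised. The class with most markers among the top 10 gave the name, even where another list had more raised. A cluster stayed unnamed where at most 1 marker was among the top 10 and another list had more raised, or where none was and 75% of 2 lists were raised. That rule was set after the clusters were seen, and the step that left cluster 6 unnamed after S100 values were seen. The authors did not deposit cell names in the files used here. Doublets were not removed. Scrublet in scanpy 1.11.5 set automatic thresholds that marked 4 control and 5 induced barcodes and were not used, and an alternative left out the 165 and 145 highest-scoring barcodes, the number expected from the barcode totals.

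Counts were summed per cluster and library and scaled to CPM. Log2 ratios used a pseudocount of 0.5 UMIs and genes with at least 20 UMIs, with exact conditional intervals. CPM carried exact Poisson intervals and shares Clopper-Pearson intervals, at 95%. Beside a share of 0 stands what 3 counts would give. Cells are not replicates, so no test was run, and 1.5-fold served as the threshold. Genes were named by rule: the 9 members, listed partners past 1.5-fold (or the highest expressed), and the 3 genes most alike over clusters with at least 200 UMIs. Anxa2 and Cacybp in cluster 2, Anxa1 in cluster 3, S100a3 in cluster 2, and Krt16 and Krt17 in clusters 0 and 2 were chosen after their values were seen. The members and lists were chosen with earlier results of these data known. The ratio and its interval were tested on simulated data. Figures and motif counts were computed in Python 3.11.15.

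In place of clusters, cells were gated on marker UMIs with 2 sets of gates. The second, with limits on other markers, was written after the S100 ratios under the first had been seen, and both are reported.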

Additional observations from a re-analysis of the deposited data

How the results depend on the processing

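Of 658 alternative values of 70 log2 ratios, 535 stayed within the counting interval. Those of opposite sign to the main value numbered 54 over 31 ratios, and 8 of the 54 belonged to ratios past 1.5-fold. Below 1.5-fold, S100a4 ran from −0.63 to 0.62 in cluster 0 and from −0.66 to 0.52 in cluster 7, and S100a14 from −0.81 to 0.70 in cluster 8 and from −2.27 to 2.00 in cluster 17. The 8 were as follows. S100a4 in cluster 5 turned to 0.15 without doublets, 0.063 with S100 genes allowed in clustering and 1.22 under the second marker gates. S100a13 in cluster 5 turned to −0.20 and −0.11 under the first and second gates. S100a4 in cluster 6 turned to −0.43 under the second gates, which were added after the S100 ratios under the first gates had been seen. Under the first gates S100a6 in cluster 9 turned to −0.77 and S100a14 in cluster 16 to −0.32, whereas under the second they stayed at 0.58 and 0.33. S100a6 in cluster 3 was 1.02 under the first gates and 0.23 under the second. The first gates captured 8.4% of cluster 3 and 28.9% of cluster 9, with 90.1% of the suprabasal gate in cluster 9 and 53.6% of the bulge gate in cluster 2. The second gates captured 92.0%, 63.9% and, for the bulge, 81.9% of the gate in cluster 2. The cause of these differences was not tested.

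The number of members past 1.5-fold left the main count in 36 of 114 alternatives. With a fold of 2 it was 0 in clusters 2, 3, 5, 8, 9 and 17. With at least 1 UMI it was 1 in cluster 0, 2 in clusters 2 and 8 and 4 in cluster 5, and with at least 100 UMIs 1 in clusters 6 and 9 and 0 in clusters 16 and 17. With under 5% mitochondrial UMIs it was 1 in clusters 0 and 6 and 2 in clusters 2 and 8. Without doublets it was 1 in cluster 5, 2 in cluster 8 and 0 in cluster 16. With S100 genes allowed it was 1 in clusters 5 and 9, and by the mean over cells 1 in clusters 5 and 7. Other scalings gave 2 in cluster 8 (size factors, and totals without mitochondrial and ribosomal genes). The first gates gave 2 in cluster 3, 1 in clusters 5 and 9 and 0 in cluster 16. The second gates gave 1 in cluster 0, 3 in cluster 8, 0 in clusters 9 and 16 and 2 in cluster 17. No value was obtained for clusters 3 and 17 under 5% mitochondrial UMIs, for cluster 6 under the first gates, for cluster 7 under either, or for cluster 16 with S100 genes allowed. Summed over the 10 populations described, genes past 1.5-fold numbered 7 for the other S100 list (2 of them S100pbp, which is no S100 protein), 7 for the fused-type genes, 12 for annexins and other partners, 2 for receptors and 5 for activation keratins. At least 1 UMI made these 40, 26, 17, 9 and 8, at least 100 UMIs 3, 5, 4, 0 and 4, and a fold of 2 made them 3, 5, 4, 2 and 3. The lists hold 10, 7, 12, 6 and 4 genes and differ in how many were tested, so the sums do not rank them. Of all genes tested, from 12.7% in cluster 0 to 29.6% in cluster 17 passed 1.5-fold in either direction. No paired analysis was possible because each group has 1 library.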
